A study of Mus musculus with 8 samples.

Results

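Livers collected in the subjective day were compared with livers collected in the subjective night, the internal day and night of animals kept without light. All 8 of the 8 samples of the series entered the comparison, chosen by their labelled circadian time (CT, in hours). The subjective day was CT29 and CT53 (called CT5 below, mid-day) and CT35 and CT59 (CT11, late day). The subjective night was CT41 and CT65 (CT17, mid-night) and CT23 and CT47 (CT23, the end of the night). Each side therefore held 4 libraries, 2 from each of 2 successive cycles. All animals were wild-type C57/BL6 mice, held for a week under 12 h of light and 12 h of darkness and then in complete darkness for the day before collection and during it. Polyadenylated liver RNA of 3 animals was mixed in equal parts for each library, and neither sex nor age is labelled. No time point had a second library. The 4 libraries of a side thus differ from each other in clock phase, cycle, pool and sequencing lane together, and every p-value below measures the day-night difference against that joint spread, not against the spread between animals.

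The circadian clock of a cell is a loop of transcription. The activators BMAL1 (gene Arntl) and CLOCK bind E-box sequences and switch on the Per, Cry and Nr1d genes, whose proteins then shut the loop down, PER and CRY by blocking the activators and the NR1D receptors by repressing Arntl at ROR elements. In the liver this loop, together with feeding, hormones and body temperature, times the genes of bile, sugar, lipid and amino acid handling. In bulk liver RNA, fewer cells of a type and less RNA per cell cannot be told apart.

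The level of a gene is given in RPKM, reads per kilobase of transcript scaled to the reads of the library, for the transcript of the gene with the largest summed level. The library totals that the RPKM values imply were 11690000 to 13880000 reads in 7 libraries and 22880000 in CT35, a day library. CT35 stood apart in further ways: its 10 highest genes took 30.4% of gene reads (23.2 to 27.5% in the others), it had 7.46 intron reads per 100 gene reads (12.4 to 14.4) and 103 splice junction reads per 100 gene reads (76.6 to 83.3). Its median correlation with the other libraries over all tested genes was 0.960, against 0.973 to 0.979. What part these differences had in the results was not tested. Counts of calls over all genes and in the main lists are given with and without CT35.

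Among 10854 genes tested, 104 differed between day and night at an adjusted p under 0.05 (limma, Benjamini-Hochberg), 0.958% of the genes tested. Such genes are named called below. By day 59 were higher (0.544%) and by night 45 (0.415%), and 1630 genes reached an unadjusted p under 0.05. The median fold among called genes was 2.11, 61 changed at least 2-fold and 11 at least 4-fold, on the scale of log2(RPKM + 0.5). In 103 of the 104 the 4 libraries of one side all lay above the 4 of the other, and all 104 moved in the same direction in both cycles (the call itself favours such genes). Without CT35 the number called was 144, of which 86 were among the 104. Without CT65, a night library, it was 24, and without CT59 it was 30. On the reads recovered for the same 10854 genes, edgeR reached an adjusted p under 0.05 for 129 genes and DESeq2 for 342.

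**Figure D1:**
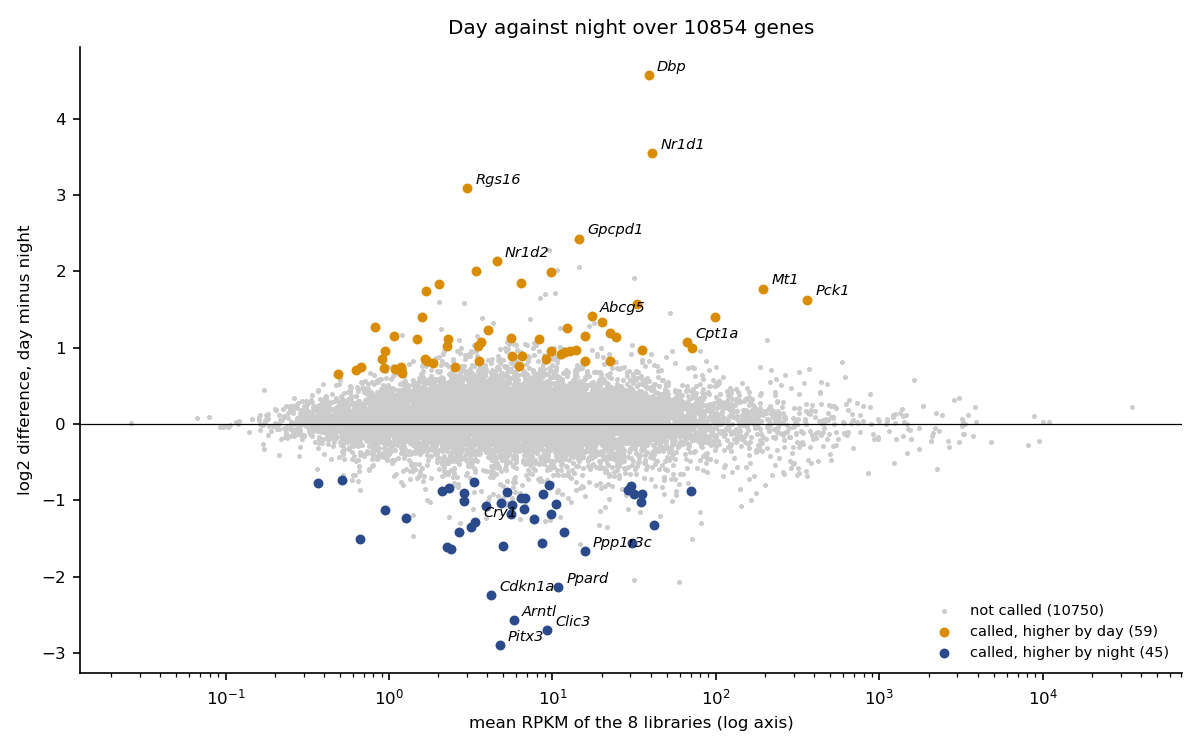
Day-night difference of each tested gene (vertical axis, log2 difference, day minus night) against its mean level in the 8 libraries (horizontal log axis, RPKM). The 59 genes called higher by day and the 45 called higher by night lie on both sides of a dense band of genes that were not called, and Dbp, Nr1d1 and Rgs16 stand highest.

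The split between the sides depended on scaling. On RPKM as deposited, the median difference of all tested genes was 0.09 log2 units towards day, and 56.7% of called genes were higher by day. After rescaling by TMM factors, which match the bulk of genes between libraries, that median was 0.002 and the share of day genes 38.5% (40 day, 64 night), and with equal medians it was 35.3%. The number called hardly moved, 104 with TMM and 102 with equal medians, and 85 of the 104 genes were called with TMM. Gene levels and their limma differences below are on RPKM as deposited, with this shift left in, unless TMM is named. The TMM value is given where it changes a reading.

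The clock genes came first. Of the 25 genes of the clock list 24 were tested, 3 were called higher by day (Dbp, Nr1d1, Nr1d2) and 3 higher by night (Arntl, Cry1, Nfil3), against the 0.958% called among all genes. The list was chosen for its known rhythm, so its count describes these libraries and is no separate evidence. Its median difference was 0.39 log2 units, beside 0.09 for all genes.

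Dbp encodes a transcription activator that binds D-box sequences and is an output of the loop. Its level was 28.6 RPKM at CT29, 103 at CT35, 73.0 at CT53 and 91.9 at CT59. At night it was 0.671 at CT23, 8.43 at CT41, 1.07 at CT47 and 3.51 at CT65. All day libraries were far above all night libraries, and CT41 was the highest night library. Dbp had the largest difference of any called gene, 4.56 log2 units (SE 0.57, limma adjusted p = 0.00445), a 23.7-fold higher level by day, and it was called in all 8 fits that left out 1 library. It lies at chr7:52960994-52965484 on the plus strand (mm9) and 56.2% of its exon bases are shared with Sphk2 on the minus strand. No source used here gives the strand setting of the quantification, so reads within the shared bases cannot be assigned to either gene. Splice junction reads matched to Dbp alone were 59, 717, 186 and 266 at CT29, CT35, CT53 and CT59. At CT23, CT41, CT47 and CT65 they were 0, 21, 1 and 13 (4.39 log2 units, edgeR adjusted p = 0.0736, not called). Sphk2 itself, a sphingosine kinase gene, was called higher by day (0.82 log2 units, limma adjusted p = 0.0387). It was not called under TMM (limma adjusted p = 0.0724) or by edgeR (adjusted p = 0.0549). Its spliced reads differed by 0.46 log2 units with an adjusted p of 0.549 (edgeR), and its introns by −0.09.

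Nr1d1 and Nr1d2 encode the REV-ERB receptors, the repressors of Arntl. Nr1d1 was at 108 RPKM in CT29 and 154 in CT53, at 15.9 in CT35 and 31.0 in CT59, and between 2.80 and 5.50 in the 4 night libraries. Both mid-day libraries were high, the late-day libraries were far lower, and neither side overlapped. The difference was 3.55 log2 units (SE 0.57, limma adjusted p = 0.018). Nr1d2 was even over the day, 7.63, 7.36, 7.17 and 8.61 RPKM at CT29, CT35, CT53 and CT59, and lay between 1.003 and 1.92 at night. That evenness gave it the smallest adjusted p of all genes, 0.000543 (limma, 2.13 log2 units, SE 0.18), although 4 called genes had larger differences towards day.

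Arntl, the activator gene, had the opposite phase. It was at 11.6 RPKM in CT23, 6.45 in CT41, 12.8 in CT47 and 9.08 in CT65. By day it was at 3.78 in CT29, 0.271 in CT35, 1.72 in CT53 and 0.673 in CT59. Every night library was above every day library and the late-day libraries were the lowest. The level was 5.95-fold higher by night (log2 difference −2.57, SE 0.43, limma adjusted p = 0.0202). Its adjusted p reached 0.0721 when 1 library was left out, and 4 of the 8 such fits called it. On the recovered gene reads DESeq2 called it (adjusted p = 0.0221) and edgeR did not (adjusted p = 0.0839).

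Nfil3 encodes E4BP4, a repressor that binds the same D-boxes as DBP. It was at 15.5, 12.5, 13.4 and 11.03 RPKM in the night libraries CT23, CT41, CT47 and CT65, and at 3.09, 3.73, 5.53 and 4.27 in the day libraries CT29, CT35, CT53 and CT59. The difference was −1.57 log2 units (SE 0.19, limma adjusted p = 0.00322), and all 8 fits that left out a library called it. The D-box activator Dbp and the D-box repressor Nfil3 thus stood on opposite sides. Cry1, a repressor of the activators, was at 4.05 to 5.30 RPKM at night, at 1.24 and 1.04 in the mid-day libraries and at 2.48 and 2.45 in the late-day ones. Its difference was −1.28 log2 units (SE 0.23, limma adjusted p = 0.0233).

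Promoter windows show the letters that clock factors are known to bind in some of these genes. Windows of 250 bases before to 50 after the annotated start were taken from RefSeq (GRCm38.p6), and 84 of the 104 called genes had at least 1. Capitals mark every match, on either strand, to the ROR element core TAGGTCA in Arntl and Nfil3 and to the E-box CACGTG in Cry1, in Pfkfb3 and in Ppp1r3c, 2 genes of sugar metabolism that are described further on. For Arntl, whose match begins 30 bases after the start, only the 30 bases around it are given (plus strand, chr7:113207530-113207559). The others are the 250 bases before the start on the minus strand, Nfil3 at chr13:52981040-52981289, Cry1 at chr10:85185055-85185304, Pfkfb3 at chr2:11502091-11502340 and Ppp1r3c at chr19:36736605-36736854.
Arntl: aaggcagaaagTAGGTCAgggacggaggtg
Nfil3: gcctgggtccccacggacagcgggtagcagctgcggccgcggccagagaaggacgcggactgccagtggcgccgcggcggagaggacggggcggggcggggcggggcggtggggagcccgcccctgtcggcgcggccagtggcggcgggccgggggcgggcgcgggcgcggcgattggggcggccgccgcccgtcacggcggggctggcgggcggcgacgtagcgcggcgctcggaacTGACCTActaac
Cry1: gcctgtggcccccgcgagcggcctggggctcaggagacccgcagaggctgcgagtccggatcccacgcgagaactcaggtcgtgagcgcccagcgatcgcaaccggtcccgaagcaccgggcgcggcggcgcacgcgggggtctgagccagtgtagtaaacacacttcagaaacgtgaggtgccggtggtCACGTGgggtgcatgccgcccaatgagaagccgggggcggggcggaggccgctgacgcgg
Pfkfb3: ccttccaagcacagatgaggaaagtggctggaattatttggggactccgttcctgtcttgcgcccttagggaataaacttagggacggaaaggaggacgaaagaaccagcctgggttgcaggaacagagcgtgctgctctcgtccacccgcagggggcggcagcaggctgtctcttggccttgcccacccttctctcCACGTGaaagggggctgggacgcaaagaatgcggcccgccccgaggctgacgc
Ppp1r3c: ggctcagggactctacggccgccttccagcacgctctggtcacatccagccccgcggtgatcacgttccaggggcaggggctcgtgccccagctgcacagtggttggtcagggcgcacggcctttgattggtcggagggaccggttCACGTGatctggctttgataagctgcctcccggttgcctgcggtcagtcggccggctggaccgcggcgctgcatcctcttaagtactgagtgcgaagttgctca

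In Nfil3 the match is on the opposite strand and begins 12 bases before the start, and the E-boxes begin 60, 53 and 104 bases before the starts of Cry1, Pfkfb3 and Ppp1r3c. The printed genes were picked for holding a match. An E-box stood in 9 of 63 windows of genes called higher by day (14.3%), in 5 of 49 of genes called higher by night (10.2%), in 10.1% of the windows of all tested genes and in 7.15% of all 32851 windows. The day genes with an E-box were Cers6, Crlf3, Fgfrl1, Maff, Pfkfb3, Retreg1, Tnfrsf19 and Zbtb25. Dbp, Nr1d1 and Nr1d2, the clock genes called higher by day, were not among them. The ROR core stood in none of the 63 day windows and in 3 of the 49 night windows (6.12%; Arntl, Nfil3 and Tjp3), beside 1.96% of the windows of tested genes and 2.61% of all windows. D-boxes (TTATGTAA, TTACGTAA or TTATATAA) were found in 0 day windows and 1 night window (2.04%), that of Slc13a2. They were found in 1.05% of the windows of tested genes and in 1.59% of all windows. The cAMP response element TGACGTCA was found in 5 day windows (7.94%) and in no night window, and in 2.98% of the windows of tested genes. The heat shock pattern GAANNTTC was found in 3.17% of day and 6.12% of night windows, in 5.74% of the windows of tested genes and in 7.86% of all windows. These are descriptions of letters in short windows, and several genes have more than 1 window.

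Several clock genes that were not called had their highest levels near the boundary between the sides. Per2 was at 3.18 and 5.59 RPKM in the mid-day libraries CT29 and CT53, 12.3 and 16.1 in CT35 and CT59, 24.5 and 19.9 in the mid-night libraries CT41 and CT65, and 4.67 and 4.31 at the end of the night. Its high values straddled the boundary between the sides, and its day-night difference was −0.35 log2 units (SE 0.59, limma adjusted p = 0.816). Per1, Per3, Tef and Ciart, a repressor of the activators, differed by 1.25, 1.38, 1.32 and 2.28 log2 units with limma adjusted p of 0.298, 0.277, 0.162 and 0.153. With the 4 clock phases as separate means, so that differences between the phases of a side leave the residual spread, all 4 were called (limma adjusted p of 0.0282, 0.00763, 0.0125 and 0.000779), as were Bhlhe41 (0.00346) and Npas2 (0.00793), while Per2 was not (0.380). Ciart was at 29.7 and 27.3 RPKM in CT35 and CT59, at 2.69 and 6.45 in CT29 and CT53, and at 4.82 and 3.45 in the night libraries CT41 and CT65, both above the day library CT29.

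Bhlhe41, a repressor that competes for E-boxes, had all 4 day libraries (4.39, 1.02, 5.88 and 2.39 RPKM at CT29, CT35, CT53 and CT59) above the night range of 0.491 to 0.757, and just missed the threshold (1.59 log2 units, SE 0.35, limma adjusted p = 0.0553). Npas2, a partner of BMAL1, was at 5.48 and 4.08 RPKM at the end of the night and at 0.123 and 0.362 in the middle of it, the latter within the range of the day libraries (0.0104 to 0.895; limma adjusted p = 0.306). Levels of Hlf, Csnk1d and Rora differed by 0.09, 0.08 and 0.13 log2 units, with adjusted p of 0.884, 0.856 and 0.766 (limma), and under TMM the first 2 of these were just below 0.

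**Figure D2:**
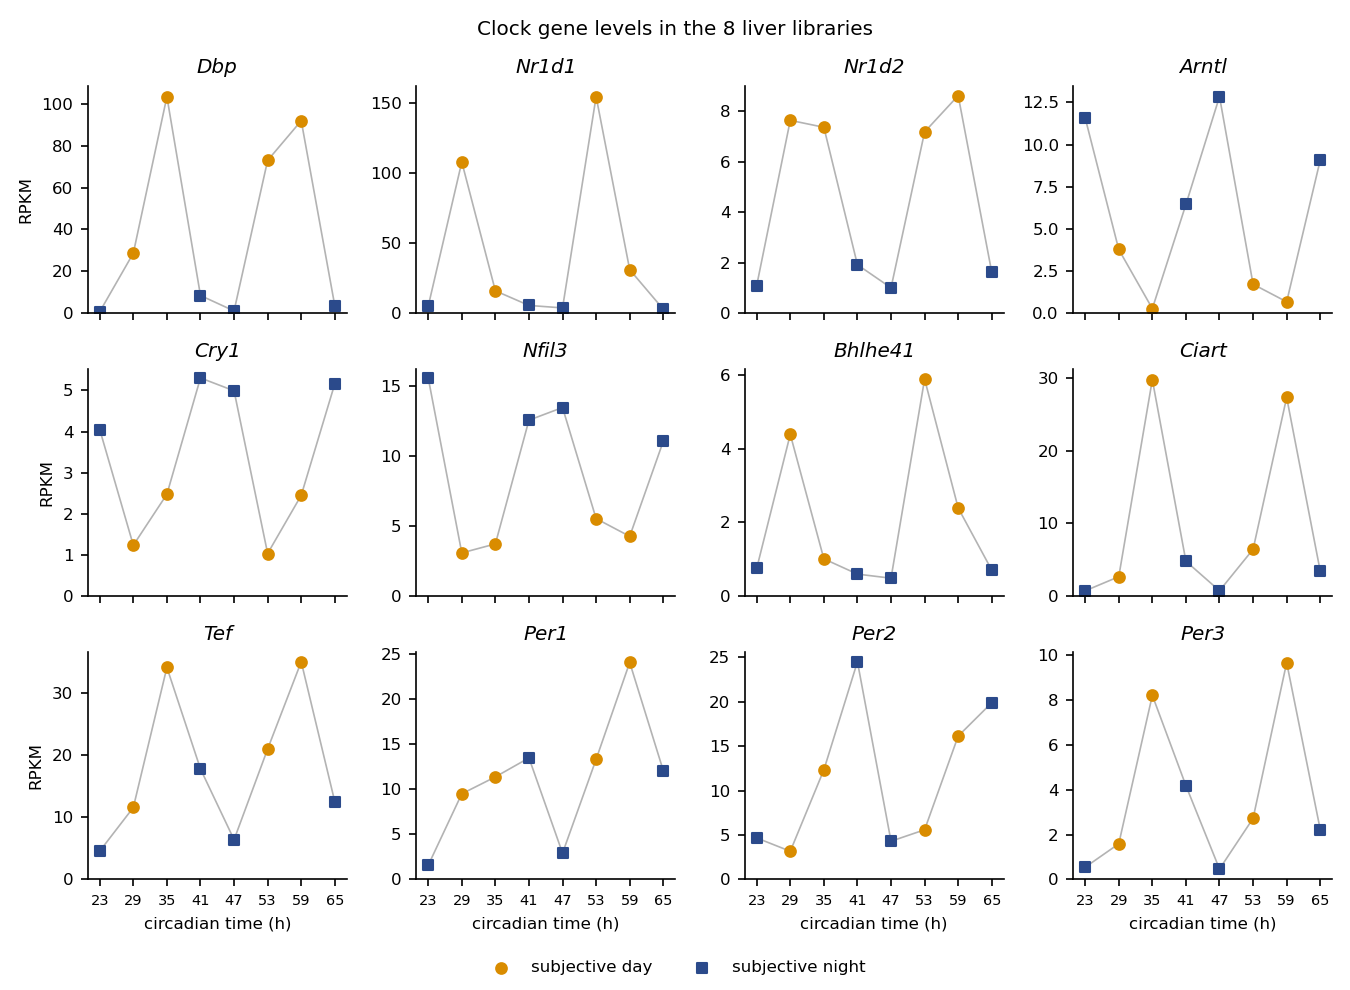
Levels of 12 clock genes in RPKM (vertical axes, each from 0) against circadian time in hours, with the 4 day libraries as circles and the 4 night libraries as squares. Dbp, Nr1d1, Nr1d2 and Bhlhe41 have every day library above every night library, Arntl, Cry1 and Nfil3 the reverse, and Per2 is high in late-day and mid-night libraries.

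Outside the clock list, the largest called differences towards day among genes with a mean of at least 1 RPKM were in Rgs16, Gpcpd1, Clec2h, Gm14097, Pfkfb3, Syt1, Mt1, Gm10804 and Pck1. Rgs16 encodes a regulator that shortens G protein signalling. It was at 3.42, 7.84, 5.41 and 6.30 RPKM at CT29, CT35, CT53 and CT59 and at 0.132, 0.769, 0.0332 and 0.0925 at CT23, CT41, CT47 and CT65. Its difference was 3.08 log2 units (SE 0.28, limma adjusted p = 0.00068) and it was called in all 8 fits that left out a library. Its lowest night levels are near those of single reads, so the size of its fold depends on the pseudocount.

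Gpcpd1 encodes a glycerophosphocholine phosphodiesterase, which breaks down a choline phospholipid product. It was at 14.02 and 13.4 RPKM at mid-day, 30.3 and 42.1 late in the day and 2.51 to 6.28 at night (2.43 log2 units, SE 0.36, limma adjusted p = 0.0113). Gm14097, a gene model 156305 bases away on chromosome 2, had a similar course, 8.31 and 9.75 RPKM at mid-day, 17.4 and 28.9 late in the day and 2.30 to 5.45 at night. Clec2h, a C-type lectin gene, was at 3.98 to 7.75 by day and 0.702 to 1.26 at night (limma adjusted p = 0.00151). Syt1, a calcium sensor of vesicle release, and the gene model Gm10804 were below 5 RPKM throughout and called in every fit that left out a library.

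Among the largest differences towards night were those of Pitx3, Clic3, Arntl, Cdkn1a, Ppard, Ppp1r3c, H3c14, Fam222a, Nfil3, Paxx and Celsr1. Cdkn1a encodes p21, an inhibitor of cyclin-dependent kinases. It was at 10.9, 3.67, 8.81 and 5.66 RPKM at CT23, CT41, CT47 and CT65 and at 2.35, 0.778, 0.842 and 0.623 at CT29, CT35, CT53 and CT59, so that each night library was above each day library (−2.24 log2 units, SE 0.34, limma adjusted p = 0.0115). It was the only 1 called of 17 tested cell cycle and growth arrest genes (limma). Ppard, a fatty acid receptor gene, was at 9.58 to 26.4 RPKM at night and 2.85 to 4.56 by day (−2.14 log2 units, SE 0.26, limma adjusted p = 0.00389).

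Some genes of large difference are close neighbours of each other. The transcript used for Clic3, a chloride channel gene (chr2:25313156-25313735, plus strand, mm9), ends 1813 bases from that used for Paxx, a DNA repair gene (chr2:25315548-25316447, minus strand). Clic3 was at 11.5 to 20.6 RPKM at night and 0.888 to 3.29 by day, a 6.50-fold difference, and Paxx at 27.1 to 65.5 and 11.6 to 22.7, a 2.95-fold one. Splice junction reads of Clic3 were few and were not tested. They numbered 5, 3, 7 and 2 at night (CT23, CT41, CT47, CT65) and 1, 8, 1 and 5 by day (CT29, CT35, CT53, CT59). The annotated ends of Pitx3, a homeobox gene (chr19:46210176-46222815, minus strand), and of Elovl3, a fatty acid elongase gene (chr19:46206389-46210184, plus strand), touch. Pitx3 was at 3.79 to 14.7 RPKM at night and 0.285 to 1.09 by day (−2.90 log2 units, SE 0.36, limma adjusted p = 0.00412). Elovl3 was at 120, 39.9, 156 and 63.2 at CT23, CT41, CT47 and CT65 and at 39.2, 12.0, 38.1 and 7.60 at CT29, CT35, CT53 and CT59 and was not called (−2.07 log2 units, SE 0.53, limma adjusted p = 0.0927). Splice junction reads matched to Pitx3 alone numbered 0 in every library. Whether reads of Elovl3 entered the value of Pitx3 was not tested.

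Bile transport held several of the called genes. Of 21 tested genes of bile acid synthesis and transport, 4 were called, all higher by day (Abcg5, Abcg8, Abcc2 and Slco1a4), against 0.544% of all genes. In 6 of the 21 the 4 day libraries all lay above the 4 night libraries, against 6.40% of all genes (695 genes), and in none the reverse, against 2.77% (301 genes). Under TMM the counts of such genes were 7 and 0, against 4.27% and 4.39%. Slco1b2 and Slco1a1 were the other 2, with adjusted p of 0.0539 and 0.323 (limma).

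Abcg5 and Abcg8 encode the 2 subunits of the pump that moves cholesterol into bile and lie head to head, 208 bases apart, on chromosome 17 (chr17:85057574-85082263 and chr17:85082471-85099673, mm9). Abcg5 was at 21.1, 33.1, 22.0 and 25.6 RPKM by day (CT29, CT35, CT53, CT59) and at 9.03, 10.96, 10.9 and 6.37 at night (CT23, CT41, CT47, CT65). Abcg8 was at 25.9 to 35.9 by day and 8.79 to 17.4 at night. The pair differed by 1.41 and 1.19 log2 units with limma adjusted p of 0.0111 and 0.0233. Abcc2, which exports bilirubin conjugates into bile, was at 84.3 to 109 RPKM by day and 40.3 to 51.0 at night (1.99-fold, limma adjusted p = 0.0182). Slco1a4, an uptake carrier of organic anions, was at 9.10 to 15.7 and 4.64 to 5.77 (2.16-fold, limma adjusted p = 0.0182). The transcript used for Abcc2 covers only chr19:43872476-43875259 (mm9), and 5 of the 8 fits that left out a library called it. With the transcript of most reads, Abcc2 differed by 0.72 log2 units (limma adjusted p = 0.0334), beside 0.99 with the one used.

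Other genes of that list were not called. Cyp7a1, the rate-limiting enzyme of bile acid synthesis, named here after its values were seen, was at 107 and 90.2 RPKM in the late-day libraries CT35 and CT59, at 13.1 and 22.2 in the mid-day libraries CT29 and CT53 and at 28.0 to 68.4 at night. The day libraries lay on both sides of the night libraries (limma adjusted p = 0.869). Slc10a1 and Slc27a5, the bile acid importer and the enzyme that reactivates returning bile acids, differed by 0.26 and −0.06 log2 units (limma adjusted p of 0.554 and 0.899).

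Among genes of fasting fuel use, Cpt1a, Angptl4 and Pck1 rose by day. Cpt1a, the gate of fatty acid entry into mitochondria, was at 67.5, 94.0, 89.7 and 111 RPKM by day (CT29, CT35, CT53, CT59) and at 38.1, 48.7, 47.9 and 35.3 at night (CT23, CT41, CT47, CT65). Angptl4, an inhibitor of lipoprotein lipase, was at 28.8 to 38.8 by day and 11.4 to 20.55 at night. Both were called (1.07 and 1.13 log2 units, limma adjusted p of 0.0234 and 0.0233), the only 2 of 26 tested genes in the list of PPAR alpha targets and fat oxidation. In the list as a whole 19 of 26 had a higher fitted level by day (16 under TMM), beside 7025 of all 10854 genes (5455 under TMM). The median of the list was 0.34 log2 units (0.24 under TMM). Ppara itself, whose 4 day libraries (24.3 to 39.7 RPKM) lay above the night libraries (15.2 to 21.0), was not called (limma adjusted p = 0.0931). Fabp1, a carrier of fatty acids in the cell, differed by 0.58 log2 units and was not called.

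Pck1, the committing enzyme of glucose production, was at 247, 835, 534 and 611 RPKM by day (CT29, CT35, CT53, CT59) and at 111, 185, 205 and 174 at night (CT23, CT41, CT47, CT65). It was called (1.63 log2 units, SE 0.33, limma adjusted p = 0.0387), but only 1 of the 8 fits that left out a library called it, and its adjusted p reached 0.129 in another. It was the only 1 of 15 tested gluconeogenesis genes called. In glucose use, Pfkfb3, which makes the activator of glycolysis, was 3.59-fold higher by day (5.35, 15.5, 10.5 and 10.1 against 2.47, 3.87, 1.89 and 1.63 RPKM, limma adjusted p = 0.0172), the only 1 of 18 called. Ppp1r3c, a subunit that directs a phosphatase to glycogen and favours its synthesis, was the 1 called of 15 glycogen genes and was higher at night: 25.0, 16.6, 31.8 and 22.3 RPKM at night (CT23, CT41, CT47, CT65) and 10.8, 5.05, 9.61 and 4.57 by day (CT29, CT35, CT53, CT59). Its mid-day values were above the late-day ones and still below every night library (−1.66 log2 units, SE 0.28, limma adjusted p = 0.0202).

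Of 18 amino acid carriers tested, 2 rose by day, Slc7a2, which imports arginine and lysine, and Slc38a2, which imports small neutral amino acids. Slc7a2 was at 40.4, 57.3, 46.4 and 53.3 RPKM by day and at 15.0, 15.6, 18.4 and 15.6 at night, narrow on both sides (1.57 log2 units, SE 0.17, limma adjusted p = 0.00151), and all 8 fits that left out a library called it. Slc38a2 was at 13.1 to 17.5 and 7.003 to 8.51 (0.92 log2 units, limma adjusted p = 0.0202). In 5 of the 18 the sides did not overlap, all higher by day, against 6.40% of all genes, and 5 also under TMM, against 4.27%. These include Slc38a3, a glutamine carrier, at 562 to 864 RPKM by day and 333 to 524 at night (limma adjusted p = 0.0775). The enzymes of amino acid breakdown and the urea cycle gave no call in 24 genes by limma, edgeR or DESeq2 (5 at an unadjusted limma p under 0.05), and none had sides that did not overlap.

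Cytosolic chaperones, which fold proteins and rise with heat, and tubulins and actins, the cytoskeleton's subunits, had lower fitted levels by day in most of their genes. Of 24 chaperone genes tested 1 was called, Bag3, a partner of HSP70, at 39.9, 49.1, 35.6 and 39.9 RPKM at night and 20.9, 15.7, 27.5 and 22.6 by day (−0.93 log2 units, SE 0.19, limma adjusted p = 0.0466). It was called in 1 of the 8 fits that left out a library. Under TMM limma also called Fkbp4, while edgeR called 4 genes of the list (Bag3, Fkbp4, Hsp90aa1 and Stip1) and DESeq2 8. Among all 10854 genes edgeR called 129 and DESeq2 342. Only 5 of the 24 had a higher fitted level by day (3 under TMM), beside 7025 of all 10854 genes (5455 under TMM). The median of the 24 was −0.27 log2 units beside 0.09 for all genes. In 7 of them all night libraries lay above all day libraries, and in none the reverse, against 2.77% and 6.40% of all genes. Under TMM the first count was 8, against 4.39%.

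Of the others among those 7, named after their values were seen, Hsp90aa1 was at 26.5, 51.3, 46.5 and 69.4 RPKM at night and 18.6, 23.4, 20.8 and 19.03 by day. Fkbp4, a co-chaperone of HSP90, was at 51.3 to 67.1 and 29.01 to 42.9. Their limma adjusted p values were 0.0553 and 0.0539. Hspb8, another of the 7, differed by only 0.23 log2 units (100.98 to 107.96 RPKM at night, 78.8 to 98.4 by day), so sides that do not overlap need not lie far apart. The most abundant chaperones, Hspa8 and Hsp90ab1, differed by −0.51 and −0.58 log2 units and were not called.

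Limma called 0 of the 12 tested tubulin and actin genes (5 at an unadjusted p under 0.05) and edgeR 0, while DESeq2 called 3 (Tuba4a, Tubg1 and Actb). Of all 10854 genes, 1630 had such an unadjusted p, and DESeq2 called 342. No gene of the 12 had a higher fitted level by day, also under TMM, beside 7025 of all 10854 genes (5455 under TMM). The median of the 12 was −0.43 log2 units (−0.53 under TMM), the lowest of the lists drawn in the plot of gene lists. In 5 of the 12 (Tubb2a, Tuba4a, Tuba1a, Tubg1 and Actb) every night library lay above every day library, against 2.77% of all genes. Actb, often used as a reference gene, was at 276, 251, 296 and 269 RPKM at night and 215, 172, 161 and 207 by day (limma adjusted p = 0.144). Tubb2a had the widest range, 34.5 to 64.2 at night, 24.4 and 25.6 at mid-day and 5.47 and 3.97 late in the day (−2.04 log2 units, SE 0.51, limma adjusted p = 0.0867). Tuba4a shares 30.8% of its exon bases with Stk16.

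Fatty acid and triglyceride synthesis had no gene called by limma among 25 (10 at an unadjusted p under 0.05, beside 1630 of all 10854 genes). Its median was −0.32 log2 units (−0.42 under TMM). Elovl3 and Agpat2 were the 2 whose sides did not overlap, both higher at night, against 2.77% of all genes. Under TMM there were 5. EdgeR called 2 genes of this list and DESeq2 4, beside 129 and 342 of all 10854 genes. The 4 were Acly, Acacb, Agpat2 and Lpin2, of which the first 3 differed by −0.85, −0.83 and −0.72 log2 units (limma) and Lpin2 by 1.45. Acly and Acacb make the precursors of fatty acids, and Lpin2 acts in triglyceride assembly. Scd1, the abundant desaturase, was at 1682 to 2098 RPKM at night and 1211 to 2069 by day (−0.33 log2 units, limma adjusted p = 0.448), and Srebf1, the regulator of the pathway, differed by −0.26 log2 units (limma adjusted p = 0.687). Cholesterol synthesis had no gene called among 24 by limma (4 at an unadjusted p under 0.05), edgeR or DESeq2, with a median of 0.14 log2 units that was 0.04 under TMM.

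**Figure D3:**
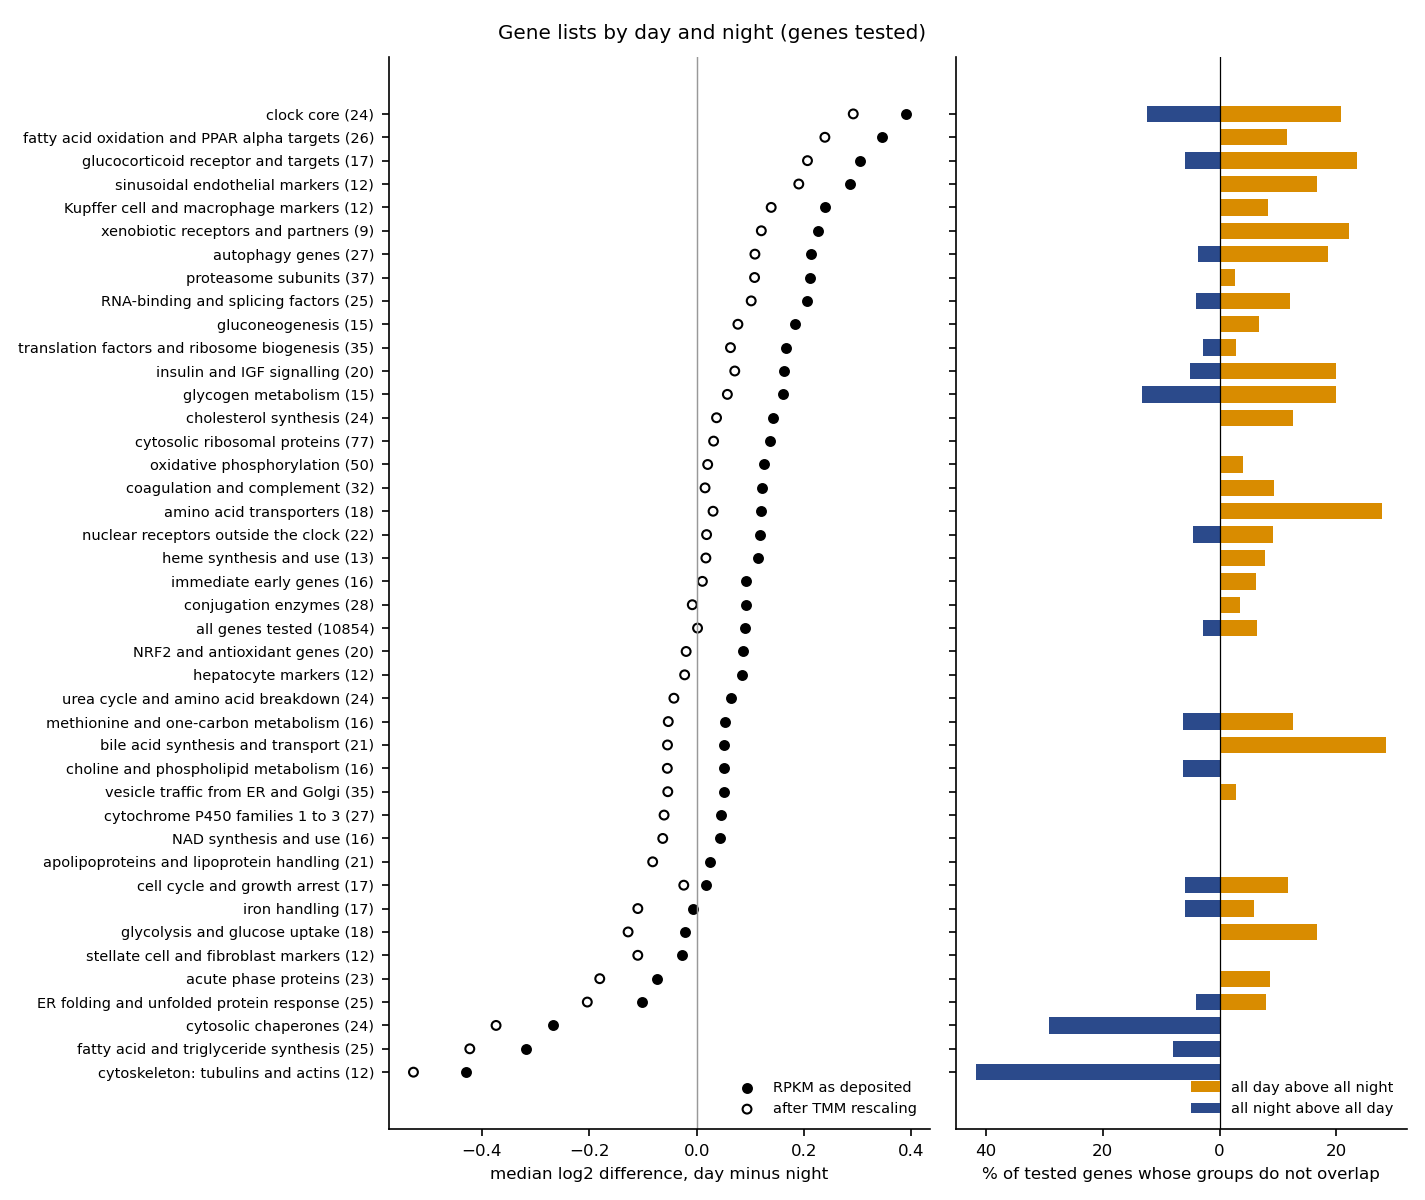
Left, median day-night difference of each list of 9 or more tested genes (horizontal axis, log2, day minus night; number tested in brackets) as deposited (filled) and after TMM rescaling (open). Right, the percentage of its tested genes whose 4 day libraries all lie above the 4 night libraries (to the right) or the reverse (to the left); tubulins and actins and cytosolic chaperones reach furthest to the left, bile acid and amino acid transport furthest to the right.

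Hormone and stress genes added a few calls. Mt1, a metallothionein that binds zinc and responds to glucocorticoids, was at 212, 264, 270 and 458 RPKM by day and at 129, 47.7, 96.4 and 84.3 at night (1.77 log2 units, limma adjusted p = 0.0202). Its neighbour in function Mt2 differed by 2.06 log2 units. It had 8.82 RPKM in the lowest day library and 8.43 in the highest night library, and was not called (limma adjusted p = 0.0649). Of 17 tested glucocorticoid receptor genes and targets, Pck1 was called higher by day and Cdkn1a higher by night, and 4 had all day libraries above all night libraries (2 under TMM), against 6.40% and 4.27% of all genes. Klf10, an early response gene, was at 4.16 to 7.32 RPKM by day and 2.06 to 2.32 at night (1.08 log2 units, limma adjusted p = 0.0202), the only 1 called of 16. Foxo3, a factor that insulin signalling holds out of the nucleus, was at 7.48 to 10.0 and 3.83 to 5.33 (0.89 log2 units, limma adjusted p = 0.0292).

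Further lists held single calls. Chka, the choline kinase gene, was at 12.6 to 21.8 RPKM at night and 3.71 to 10.6 by day (−1.41 log2 units, limma adjusted p = 0.0387), and 1 of the 8 fits that left out a library called it. Ppard was the only 1 called of 22 nuclear receptor genes outside the clock.

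Limma called no gene in several lists, a share near the background of 0.958% for lists of this size: 0 of 27 cytochrome P450 genes, 28 conjugation enzymes, 21 apolipoprotein and lipoprotein genes, 32 coagulation and complement genes, 77 ribosomal protein genes, 50 oxidative phosphorylation genes, 37 proteasome subunits, 16 genes of NAD metabolism, 27 autophagy genes and 25 genes of endoplasmic reticulum folding. At an unadjusted limma p under 0.05 these lists had between 0 (apolipoproteins) and 9 (endoplasmic reticulum folding) genes, beside 1630 of all 10854. EdgeR (129 calls among all 10854 genes) called none of these genes either. DESeq2 (342 calls among all genes) called 1 conjugation gene (Sult1b1), 1 gene of NAD metabolism (Acmsd) and 4 of endoplasmic reticulum folding (Hyou1, Sdf2l1, Pdia4 and Trib3). Their medians lay between −0.10 and 0.21 log2 units, beside 0.09 for all genes, and those of P450, conjugation, apolipoprotein and NAD genes turned slightly negative under TMM. The lowest, that of endoplasmic reticulum folding, was −0.20 under TMM. Only 7 of its 25 genes had a higher fitted level by day (4 under TMM), beside 7025 of all 10854 genes (5455 under TMM). Without CT35 limma called 1 of the 25, Sdf2l1, higher by night. In 7 of them all night libraries then lay above all day libraries, against 3.91% of all genes. In ribosomal proteins, P450s, apolipoproteins and NAD genes no gene had sides that did not overlap, against 6.40% (day above) and 2.77% (night above) of all genes. Under TMM 2 P450 genes, 1 ribosomal protein gene and 1 apolipoprotein gene had such sides. Albumin, at 26546 to 53810 RPKM, differed by 0.22 log2 units (limma adjusted p = 0.672). A p that misses the threshold does not show that these genes were level, and levels can differ within a side, as for Por, the electron donor of P450s, at 220 RPKM in CT29 and 879 in CT59.

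Among markers of the cell types in liver tissue limma called 0 of the tested genes, with at most 2 of a list at an unadjusted p under 0.05, and edgeR and DESeq2 called Sox9. Among all 10854 genes, 7025 had a higher fitted level by day (5455 under TMM). Of 12 Kupffer cell and macrophage markers 11 had a higher fitted level by day (10 under TMM), with a summed level of 157 to 208 RPKM by day and 130 to 197 at night. Of 12 sinusoidal endothelial markers 11 had a higher fitted level by day (8 under TMM), with sums of 131 to 181 and 116 to 163. Hepatocyte markers summed to 55258 to 82516 RPKM by day and 51147 to 69515 at night, and stellate cell and fibroblast markers, of which 5 of 12 had a higher fitted level by day (1 under TMM), to 143 to 227 and 202 to 259. Sox9, 1 of 5 cholangiocyte markers tested, was the only marker with all night libraries (2.58 to 7.71 RPKM) above all day libraries (1.12 to 2.16), against 2.77% of all genes. Its limma adjusted p was 0.0767. Cd5l, 1 of 12 macrophage markers, and Stab2 and Kdr, 2 of 12 endothelial ones, had all day libraries above all night libraries (limma adjusted p of 0.152, 0.136 and 0.317). Among all genes that share was 6.40%. Under TMM each of these 2 lists had 1 such gene, against 4.27% of all genes. None of the neutrophil markers and 4 of 12 lymphocyte markers passed the filter on reads, with sums of at most 3.26 and 8.75 RPKM in any library. What part the makeup of the tissue had in the day-night differences was not tested.

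Intron reads, which come mostly from transcripts not yet spliced, and reads across splice junctions were tested in the same 8 libraries. They share those libraries with the gene levels, so the values are set side by side and are no independent replicate. Limma called 76 of 5808 genes by their introns (1.31%), 22 higher by day and 54 by night, and 73 without CT35; 596 had an unadjusted p under 0.05. EdgeR called 64 of 9053 genes by their junction reads (0.707%), 26 by day and 38 by night, and 121 without CT35. For junction reads 1109 had an unadjusted p under 0.05.

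Rgs16 and Arntl had the smallest adjusted p values by introns. The introns of Rgs16 were 3.37 log2 units higher by day (limma adjusted p = 5.67e-07) and those of Arntl 1.70 log2 units higher by night (log2 difference −1.70, limma adjusted p = 4.04e-06). Intron RPKM of Arntl was 0.409, 0.270, 0.368 and 0.352 at CT23, CT41, CT47 and CT65 and 0.0623, 0.0164, 0.0393 and 0.0374 at CT29, CT35, CT53 and CT59, so the night libraries were closer to each other than in the gene level. Nr1d2, Gpcpd1, Pfkfb3, Slc7a2, Abcg5, Slco1a4 and Slc38a2 were called higher by day also by introns, and Ppard, Pitx3, Fam222a and Celsr1 higher by night. For Pitx3, no library held a splice junction read matched to it alone.

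Some genes were called in 1 measure and not in another. Dbp, Nr1d1, Rgs16 and Arntl, called by their level, were not called by junction reads. Their junction differences were 4.39, 4.23, 3.91 and −2.75 log2 units (edgeR adjusted p of 0.0736, 0.0715, 0.0779 and 0.140). In the gene level they were 4.56, 3.55, 3.08 and −2.57. In each of these genes the sides did not overlap in junction reads either, so only the threshold was missed. Abcc2, 0.99 log2 units higher by day in the gene level and 0.77 in junction reads (edgeR adjusted p = 0.0365), differed by 0.07 in introns (limma adjusted p = 0.993). Cpt1a differed by 0.69 in introns (limma adjusted p = 0.431) and by 1.01 in junction reads (edgeR adjusted p = 0.0103). Bhlhe40, a clock repressor not called by its level (0.60 log2 units), was called by introns (1.04, limma adjusted p = 0.0294). The intron and gene tests differ in noise and in pseudocount, and the differences between measures were not tested.

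Introns also carried calls for genes whose level missed the threshold, named here after their values were seen. Elovl3 introns were at 26.7, 10.9, 23.9 and 26.6 RPKM at night (CT23, CT41, CT47, CT65) and 2.65, 0.456, 2.35 and 1.73 by day (CT29, CT35, CT53, CT59), a log2 difference of −3.69 (limma adjusted p = 0.000436), wider than the −2.07 of its level. Tubb2a introns differed by −1.81 (limma adjusted p = 0.000717) and Mt2 introns by 2.81 (limma adjusted p = 0.00159). In all 3 the intron levels of the sides did not overlap. Junction reads likewise called Hsp90aa1 (−1.60 log2 units, edgeR adjusted p = 0.00488) and Hsp90ab1 (−0.87, edgeR adjusted p = 0.0252). Hdc, the histamine-forming enzyme gene, was called higher by day in its level (1.15 log2 units, limma adjusted p = 0.0395) and introns (1.40, limma adjusted p = 0.0169), but not in its level under TMM (limma adjusted p = 0.0788), and its junction reads differed by −0.39 (edgeR adjusted p = 0.759).

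**Figure D4:**
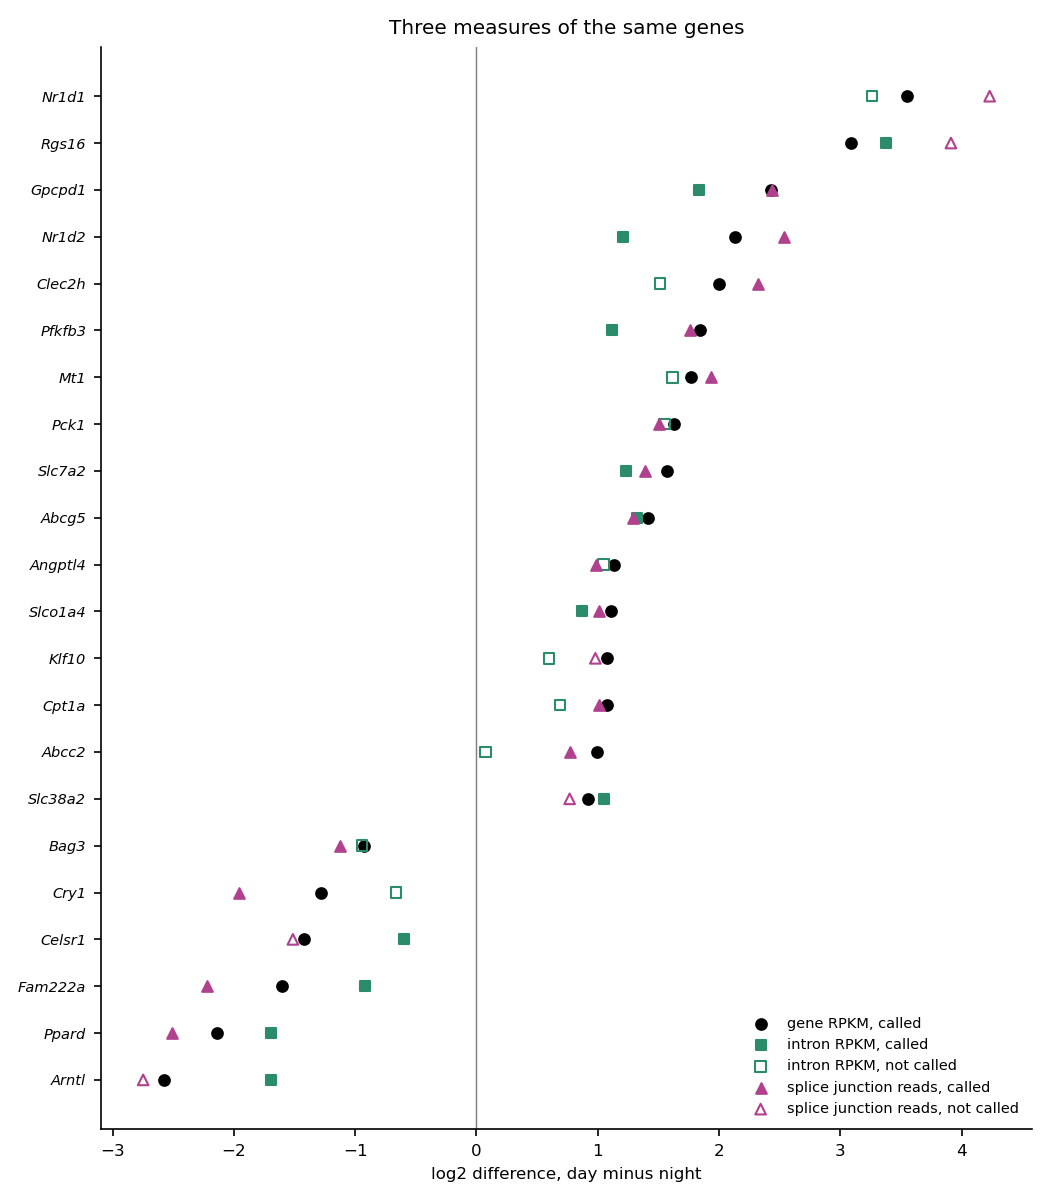
Day-night difference (horizontal axis, log2, day minus night) of 22 called genes chosen by the naming rule and tested in all 3 measures: gene level (circles), intron level (squares) and splice junction reads (triangles), filled where the adjusted p is under 0.05. All 3 measures lie on the same side of 0 for each gene drawn, with the intron value of Abcc2 nearest to 0; Hdc, Fads3 and Sphk2, which are not drawn, have 1 measure on the other side.

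The day-night difference was also compared between the cycles, CT23 to CT41 against CT47 to CT65, with 1 library per phase in each. Limma called no gene (0 of 10854 at an adjusted p under 0.05, 253 at an unadjusted p under 0.05), with 4 residual degrees of freedom. The smallest adjusted p was 0.354, for the gene model Gm11808, at 67.2 and 77.9 RPKM at night and 17.6 and 19.9 by day in the first cycle and at 36.8 and 54.2 against 91.4 and 72.2 in the second. For Dbp the difference was 4.09 log2 units in the first cycle and 5.04 in the second, for Nr1d1 2.88 and 4.22, and for Arntl −2.34 and −2.81.

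Calls differed in how far they rested on single libraries. Of the 104 called genes, 21 were called in each of the 8 fits that left out 1 library, 11 of them higher by day, among which are Dbp, Nr1d2, Rgs16, Gpcpd1, Clec2h, Syt1, Slc7a2 and Abcg5, and 10 higher by night, among which are Nfil3, Pitx3, Clic3, Cdkn1a, Ppard, Fam222a and Celsr1. Without CT35, 91 genes were called higher by day and 53 higher by night among 10567 tested, beside 59 and 45 with all 8 libraries. Calls thus rose over all genes, and the lists changed as follows. Limma called 4 clock genes by day, with Bhlhe41 added, and the same 3 by night. It called 5 bile genes, with Slco1b2 added, the same 2 amino acid carriers, and 4 genes of fat oxidation, with Cyp4a31 and Vnn1 added. Cytosolic chaperones had 4 calls, all higher by night (Bag3, Fkbp4, Hsp90aa1 and Hspb1), fatty acid synthesis 1 (Acly), and tubulins and actins 0. Pck1 was no longer called, so that gluconeogenesis had 0 calls, and the glucocorticoid list had Klf9 by day and Cdkn1a by night. Sides that did not overlap, now 3 day against 4 night libraries, were found in 6 bile genes and 6 amino acid carriers (day above, 9.66% of all genes), and in 10 chaperones and 6 tubulins and actins (night above, 3.91% of all genes).

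Leaving out a night library lowered the number of calls, to 50 without CT23, 63 without CT41, 44 without CT47 and 24 without CT65. Without the day libraries it was 122 (CT29), 144 (CT35), 54 (CT53) and 30 (CT59). Day-called genes had their highest phase mean at CT5 in 28 cases and at CT11 in 31, night-called genes at CT17 in 18 and at CT23 in 27, so both phases of each side contributed.

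**Figure D5:**
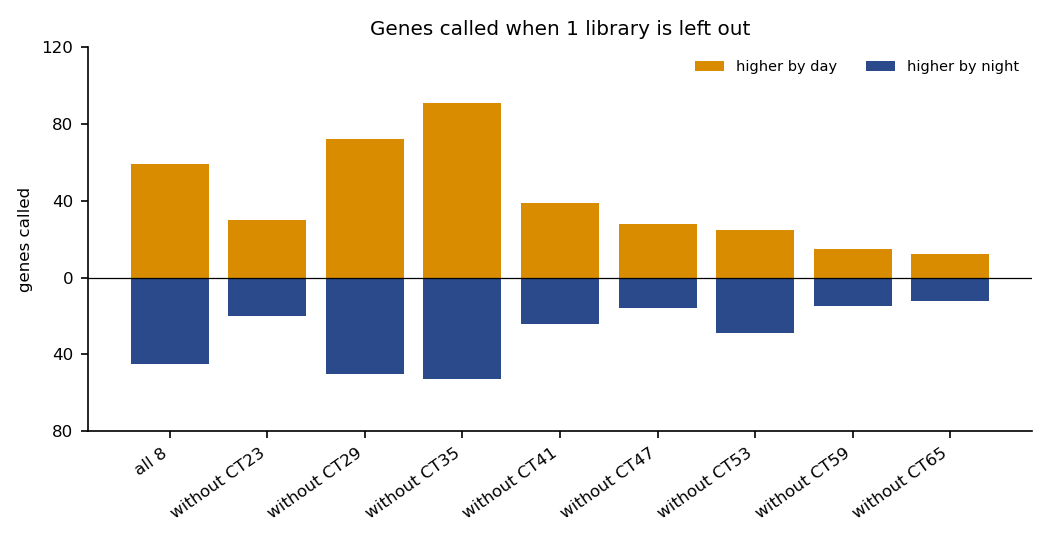
Number of genes called (vertical axis; higher by day upward, higher by night downward) with all 8 libraries and with each library left out in turn (horizontal axis). Calls fall from 104 to 24 without CT65 and rise to 144 without CT35.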

How the data were processed

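Per the labels' protocols, polyadenylated RNA was fragmented, copied to double-stranded cDNA and sequenced with paired-end adapters. The genome build was mm9, per the submitters' processing notes. No source used here gives the aligner version, the counting rules or the strand setting. The deposited feature tables give a lower and an upper value for each transcript, exon and intron (min and max, per the file headers). The lower values behave as RPKM: in each library 98.7 to 99.7% of them, as the authors deposited them, were whole multiples of the worth of 1 read, which gave reads per gene. The deposited junction tables give a read count per splice junction, per the file headers.

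Of 115699 transcripts 79705 (68.89%) were matched to 24142 gene names through RefSeq and Vega identifiers. Genes with at least 20 reads in 2 libraries were tested with limma 3.58.1 (trend, robust) on log2(RPKM + 0.5), introns clear of exons on log2(RPKM + 0.1), with 6 residual degrees of freedom, and junction reads summed per gene with edgeR 4.0.16 (quasi-likelihood, TMM). DESeq2 1.42.0 and edgeR on the recovered gene reads were alternatives. Fits were tested on simulated data (R 4.3.3). P-values were adjusted over all features by Benjamini-Hochberg, 2-sided. Standard errors (SE) are limma's and folds are on the log2 scale with its pseudocount.

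Named genes are the clock list, the 12 called genes of largest difference each way with a mean of at least 1 RPKM, sides that do not overlap and the same direction in both cycles, up to 3 called and 2 abundant uncalled members of each other list, and, between cycles, the 3 of smallest p each way. Some genes that the rule names are not reported here. Others are said to be named after their values were seen. The comparison, lists and tests were chosen with earlier results of these data known. Depth was 6518212 to 14387379 recovered gene reads per library, which leaves genes of few reads imprecise.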

Additional observations from a re-analysis of the deposited data

Results flagged for a closer look

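In 9 of 284 groups of 4 libraries examined over 142 named genes, 1 library lay far from the other 3 by Dixon's criterion (its gap to the nearest other, divided by the range, above the 95% critical value). Chance gives about 1 in 20 such groups. Of the 9, 4 were the day library CT35, which also stood apart in depth and intron share, and whose part in them was not tested. Rpl41, a ribosomal protein gene, was at 474 RPKM in CT35 and 145 to 146 in the other day libraries (ratio 0.9925). Errfi1, a feedback inhibitor of EGF receptor signalling, was at 272 in CT35 and 337 to 341 in the others (0.9473). Ass1, of the urea cycle, was at 967 in CT35 and 2077 to 2260 in the others (0.9006), and Surf4, a cargo receptor, at 115 and 75.2 to 80.5 (0.8415).

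Among the other day libraries, Eno1, a glycolytic enzyme gene, was at 194 RPKM in CT29 and 269 to 277 elsewhere (0.9129), and Gstm1, a glutathione transferase gene, at 3097 in CT53 and 1931 to 2012 elsewhere (0.9122). Among the night libraries, Sardh, which oxidises sarcosine, was at 777 RPKM in CT41 and 614 to 620 elsewhere (0.9582), Ptprc, a leukocyte marker, at 0.754 in CT47 and 0.577 to 0.6002 elsewhere (0.8588), and Cat, the catalase gene, at 3977 in CT65 and 2503 to 2688 elsewhere (0.8455). None of these 9 genes was called between day and night by limma, edgeR or DESeq2; Errfi1 and Ass1 had an unadjusted limma p under 0.05 (0.00512 and 0.0397).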

How the results depend on the processing

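Calls (all, higher by day, higher by night) were 104, 59 and 45 for genes. They were 9, 5 and 4 with no filter on reads, 250, 142 and 108 with the 4 clock phases as separate means, 63, 35 and 28 with cycle as a term, 305, 201 and 104 with library weights, and 342, 140 and 202 with DESeq2; day calls were 36 with equal medians and night calls 79 with edgeR. With the transcript of most reads, an alternative chosen after seeing the data, they were 192, 113 and 79. Leaving out 1 library gave 24 to 144, 12 to 91 and 12 to 53. For introns (76, 22 and 54), asking for 5 reads gave 17, 5 and 12, equal intron medians (chosen after seeing the data) gave 38 day calls, and leaving out 1 library gave 37 to 102, 9 to 33 and 27 to 80. For junction reads (64, 26 and 38), DESeq2 gave 198, 88 and 110, and leaving out 1 library 15 to 121, 6 to 65 and 9 to 56. Other pseudocounts, the upper value and 20 reads in every library kept gene counts within 1.5 times. No gene was called between cycles under any alternative run. Of single-gene values under the alternatives, 2812 kept direction and side of the threshold, 117 lost the call, 28 gained it and none reversed. The labels give no replicate numbers; the fit with cycle as a term is the one that compares day and night within cycles. Among called genes named in the text, Sphk2 and Hdc lost the call under TMM, and these, Pck1 and Foxo3 (limma adjusted p = 0.0505 for both) with equal medians. With edgeR on the recovered gene reads, Arntl (edgeR adjusted p = 0.0839) and Sphk2 (edgeR adjusted p = 0.0549) lost it. Depth limits the precision of genes with few reads.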

Other observations

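Several called genes belong to no list above; they are named after their values were seen. By night, Ddc, the decarboxylase of aromatic amino acids, was at 50.8 to 72.6 RPKM against 15.1 to 34.8 by day (limma adjusted p = 0.0335), Syvn1, a ubiquitin ligase of the endoplasmic reticulum, at 84.0 to 97.7 against 38.7 to 62.3 (limma adjusted p = 0.0387), and Leap2, a liver peptide that blocks the ghrelin receptor, at 7.05 to 10.5 against 3.87 to 4.62 (limma adjusted p = 0.0202). Tjp3, a tight junction gene, Itga5, the fibronectin receptor subunit, Septin9 and Lad1 were also higher by night, with limma adjusted p of 0.0202, 0.0387, 0.0369 and 0.0064.

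By day, Slc25a47, a mitochondrial carrier gene, was at 80.9, 217, 154 and 125 RPKM (CT29, CT35, CT53, CT59) against 39.1 to 57.5 at night (limma adjusted p = 0.0335). Abcd2, a peroxisomal importer of fatty acids, was at 1.002 to 1.64 against 0.208 to 0.364 (limma adjusted p = 0.00158), and Fbxo21, a ubiquitin ligase subunit gene, at 21.5 to 39.1 against 7.49 to 14.5 (limma adjusted p = 0.0233). Fads3, a desaturase homologue, was at 4.32 to 4.99 against 2.29 to 2.66 (limma adjusted p = 0.0212), while its junction reads differed by −0.47 log2 units with an adjusted p of 0.613 (edgeR).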
